A study of Mus musculus with 10 samples.

Results

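Of the 16771 genes listed in each expression table, 50 act in G2 and mitosis, and they were chosen by gene symbol: 50 symbols were looked up and all 50 were found. They fall into 9 roles, which are the proliferation antigen Ki-67 and topoisomerase II alpha, mitotic entry cyclins and kinases, condensin, the spindle checkpoint, the kinetochore and centromere, spindle microtubules, the chromosomal passenger complex, the anaphase-promoting complex, and cytokinesis. Each of the 50 had at least 1 RPKM (reads scaled by gene length and by library total) in at least 2 of the 8 progenitor libraries and so was among the 9702 genes tested there. The question put to them was whether Mki67, which encodes Ki-67, moved with the spindle and kinetochore genes.

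Cyclin B with Cdk1 drives cells from G2 into mitosis, condensin compacts the chromosomes, and kinetochores attach them to spindle microtubules. The spindle checkpoint holds the anaphase-promoting complex back until every chromosome is attached, after which cyclin B and securin are degraded and cytokinesis splits the cell. Transcripts of most of these genes peak in G2 and mitosis, so their level in a cell population follows the share of cells that are cycling, and in bone marrow they mark dividing progenitors. In bulk RNA, fewer cycling cells and less of these RNAs per cell cannot be told apart.

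RNA sequencing had been done on bone marrow cells from C57BL/6 mice, in 5 groups of 2 libraries. The 3 mutant groups held lineage-negative cells, labelled haematopoietic stem and progenitor cells (HSPC): Npm1c cells (Npm1flox-cA/+;Mx1-Cre+), which carry the leukaemia-associated cytoplasmic form of nucleophosmin, Flt3-ITD cells (Flt3ITD/+), which carry an internal tandem duplication in the Flt3 receptor kinase, and double mutant cells with both (Npm1flox-cA/+;Flt3ITD/+;Mx1-Cre+). The other groups were wild-type (WT) neutrophils and WT HSPC. Mx1-Cre is driven by an interferon-responsive promoter that is active in blood cells and other tissues, and the labels of WT and Flt3-ITD mice name no Cre. Whether Cre was induced with an agent and the ages of the mice are details not given in the sources used here. Whether mice were pooled or each library had its own mouse is not given either, so p-values measure the spread between these libraries. In Npm1c and in Flt3-ITD the 2 libraries differed in Y-linked reads, as given below, and so were not repeats of 1 sample. In the other groups the spread may be technical.

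The libraries held between 40783015 and 57824373 reads in the RPKM denominator, and between 60.9% and 81.3% of those lay on listed genes. Each member had between 234 and 71059 reads in a library. Values below are scaled RPKM: the deposited RPKM divided by a median-of-ratios factor between 0.722 and 1.26, with 1 factor per library. The gene lengths used by the authors, recovered from the files, ran from 1344 bases for Spc24 to 25537 for Prc1 and exceeded 1.5 times the GENCODE mRNA length for 34 of the 50 genes, so levels of different genes are not compared per mRNA. The late neutrophil list (18 genes, with S100a8, Ngp and Camp among them) summed to between 140400 and 141500 scaled RPKM in neutrophils and 50.1 to 408 in HSPC. All 18 were higher in neutrophils than in WT HSPC, as were 43.4% of all genes tested. The stem and progenitor list (14 genes) summed to 27.7 to 28.2 in neutrophils and 91.9 to 145 in HSPC. In the double mutant 3 markers rose, Cd48, Flt3 and Ly6a, and 5 of the 9 tested fell, where 38.0% of all genes rose and 39.3% fell. Ly6a had 5.29 and 5.25 scaled RPKM there, a small part of that sum. Myb, a transcription factor of progenitors, had 10.6 and 10.8 scaled RPKM in the double mutant and 9.33 and 9.32 in neutrophils, against 47.4 and 46.8 in WT HSPC, and Gata2 had 0.973 and 1.05 in the double mutant and 3.17 and 2.89 in neutrophils, against 4.83 and 5.04 in WT HSPC. The double mutant libraries are called HSPC by their label. Among the HSPC libraries, 1 Npm1c and 1 Flt3-ITD library held reads on Y-linked genes. Y-linked Eif2s3y had 0.00485 and 6.10 scaled RPKM in the Npm1c libraries and 5.57 and 0.00249 in the Flt3-ITD libraries. The labels give no sex.

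Genes of this kind are known to carry 2 promoter elements, the cell cycle genes homology region (TTTGAA), where MuvB complexes with B-MYB or as DREAM act, and the CCAAT box, where NF-Y binds. Promoters were taken from RefSeq on GRCm38.p6, from 250 bases before to 50 after each start, and 42 of the 50 genes matched. TTTGAA, searched on both strands, was found in 30 of the 42 genes (72.7% of their 44 promoters), against 17.9% of all 32851 promoters. CCAAT, on both strands, was found in 32 of 42 (77.3% of promoters), against 37.4% of all. Both motifs were present in 27 of 42 (65.9% of promoters), against 6.95% of all promoters. A match is a description of letters and not of a bound site. The promoters below are of Mki67, of Top2a, Ccnb2, Cdc20 and Cenpa, which were low in the double mutant, and of Kif23 and Pttg1, which were not. They were chosen after their values were seen, capitals mark TTTGAA and CCAAT on either strand, and no base lies in both motifs. The coordinates in order, all on the minus strand except Cenpa, are chr7:135716330-135716629, chr11:99024140-99024439, chr9:70421505-70421804, chr4:118437294-118437593, chr5:30666636-30666935, chr9:61946750-61947049 and chr11:43425932-43426231.
Mki67: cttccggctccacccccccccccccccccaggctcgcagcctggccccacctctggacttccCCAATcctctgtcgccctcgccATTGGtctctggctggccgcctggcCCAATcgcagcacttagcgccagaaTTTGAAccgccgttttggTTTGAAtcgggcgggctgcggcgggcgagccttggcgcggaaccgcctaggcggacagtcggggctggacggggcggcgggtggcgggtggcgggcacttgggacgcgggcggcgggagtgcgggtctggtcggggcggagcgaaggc
Top2a: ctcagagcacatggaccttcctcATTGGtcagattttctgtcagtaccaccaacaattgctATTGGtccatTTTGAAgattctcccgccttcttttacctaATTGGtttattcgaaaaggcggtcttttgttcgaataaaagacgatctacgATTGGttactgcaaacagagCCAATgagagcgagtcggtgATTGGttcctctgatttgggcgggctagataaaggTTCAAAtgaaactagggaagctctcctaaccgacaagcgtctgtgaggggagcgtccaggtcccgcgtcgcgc
Ccnb2: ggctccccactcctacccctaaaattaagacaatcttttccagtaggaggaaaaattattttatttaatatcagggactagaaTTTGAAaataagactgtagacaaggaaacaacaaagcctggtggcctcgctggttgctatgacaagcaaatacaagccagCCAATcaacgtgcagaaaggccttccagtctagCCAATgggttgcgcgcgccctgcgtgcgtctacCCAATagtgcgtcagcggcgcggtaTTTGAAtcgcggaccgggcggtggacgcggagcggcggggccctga
Cdc20: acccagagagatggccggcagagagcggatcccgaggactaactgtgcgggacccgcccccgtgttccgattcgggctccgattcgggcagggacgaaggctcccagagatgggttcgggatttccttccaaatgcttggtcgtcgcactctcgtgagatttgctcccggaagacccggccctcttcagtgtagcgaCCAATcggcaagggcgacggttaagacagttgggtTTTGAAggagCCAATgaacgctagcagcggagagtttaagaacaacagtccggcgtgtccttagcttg
Cenpa: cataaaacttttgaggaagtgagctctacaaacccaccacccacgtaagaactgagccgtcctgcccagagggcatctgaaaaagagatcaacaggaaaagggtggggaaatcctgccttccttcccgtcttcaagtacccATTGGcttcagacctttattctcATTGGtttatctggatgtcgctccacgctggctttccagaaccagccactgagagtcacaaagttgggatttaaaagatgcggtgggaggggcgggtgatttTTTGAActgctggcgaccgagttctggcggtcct
Kif23: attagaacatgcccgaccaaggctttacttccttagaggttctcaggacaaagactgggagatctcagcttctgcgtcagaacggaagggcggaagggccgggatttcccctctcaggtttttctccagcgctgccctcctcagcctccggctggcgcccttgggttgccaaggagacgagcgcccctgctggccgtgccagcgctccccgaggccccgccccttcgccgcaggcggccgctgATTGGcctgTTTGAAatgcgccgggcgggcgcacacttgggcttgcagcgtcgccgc
Pttg1: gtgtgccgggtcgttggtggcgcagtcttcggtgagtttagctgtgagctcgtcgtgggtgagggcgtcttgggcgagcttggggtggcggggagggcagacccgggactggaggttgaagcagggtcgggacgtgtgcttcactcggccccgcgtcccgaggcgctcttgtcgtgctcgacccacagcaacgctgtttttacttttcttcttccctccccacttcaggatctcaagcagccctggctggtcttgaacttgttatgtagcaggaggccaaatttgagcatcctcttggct
Mki67 holds 2 TTTGAA and 3 CCAAT matches, Top2a 2 and 6, and Kif23 1 of each. The Pttg1 window holds none, and it surrounds a RefSeq start that lies inside the GENCODE M21 gene.

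Most of these genes fell in Npm1c and in the double mutant, fewer passed in Flt3-ITD, and the double mutant libraries were the lowest of the HSPC libraries for 43 of the 50. In Npm1c cells 37 of 50 fell and 1 rose, with limma and Benjamini-Hochberg adjustment over all genes at 0.05, where 20.2% of all 9702 genes fell and 18.2% rose. In Flt3-ITD cells 20 fell and 2 rose, against 9.48% and 8.76% of all genes. In the double mutant 47 fell and 2 rose, against 39.3% and 38.0% of all genes. The median log2 change of the 50 was -0.32 in Npm1c, -0.13 in Flt3-ITD and -0.73 in the double mutant, where the median of all genes tested was -0.01, 0.01 and -0.02. The Flt3-ITD count rests on the WT libraries: without WT replicate 1 it was 2 of 50, and without WT replicate 2 it was 4. Leaving out either double mutant library, which enters that comparison through the shared estimate of spread, left 13.

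Scaling moved these splits. On the RPKM as deposited, the median gene shifted by -0.26 in Npm1c, -0.14 in Flt3-ITD and -0.34 in the double mutant, on the log2 scale. Among all genes, 242 rose and 5638 fell in Npm1c (1765 and 1957 as scaled), 180 rose and 3033 fell in Flt3-ITD (850 and 920 as scaled), and 2316 rose and 5719 fell in the double mutant (3687 and 3814 as scaled). With the sum of listed genes, 949 rose and 3024 fell in Npm1c, 392 rose and 2050 fell in Flt3-ITD, and 3005 rose and 4810 fell in the double mutant, where quantile normalization gave 2866 and 5196. The members' deposited counts were 47 lower in Npm1c, 38 in Flt3-ITD and 47 in the double mutant. Changes given here are relative to the median gene.

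**Figure D1:**
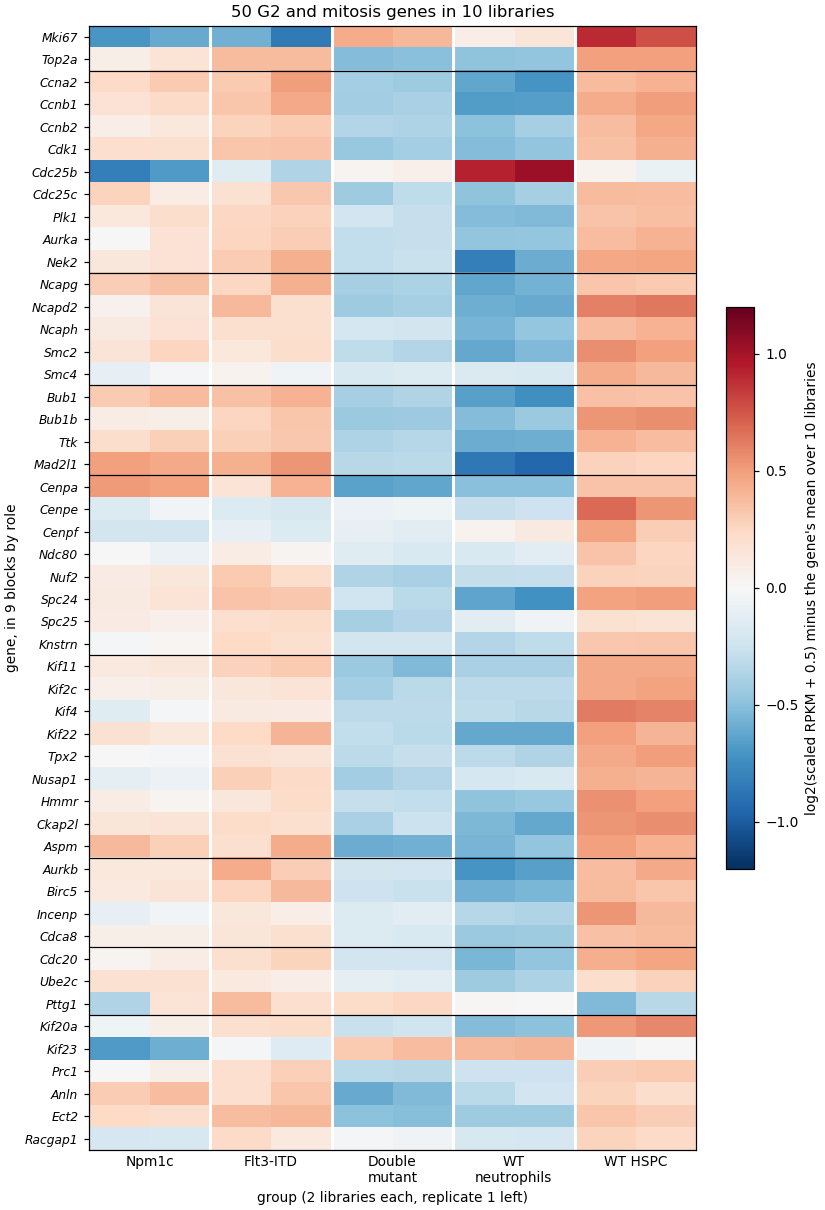
Level of each of the 50 genes in each of the 10 libraries, as log2(scaled RPKM + 0.5) minus the gene's own mean, so red is high and blue is low for that gene. Both double mutant columns are the lowest of the HSPC columns for 43 genes. Among these columns Mki67 is lowest in both single mutants, and Cdc25b and Kif23 are lowest in Npm1c.

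By order alone, both double mutant libraries lay below the other 6 HSPC libraries for 43 of the 50 genes, which held for 39.2% of all genes tested. The exceptions were Mki67, Cdc25b, Cenpe, Cenpf, Pttg1, Kif23 and Racgap1. Both WT libraries lay above all 6 mutant libraries for 34 of the 50, against 11.8% of all genes. Of the 50, 19 fell in each of the 3 mutant groups, among them Mki67, Cenpe, Cenpf, Kif4, Bub1b and Cdc20. Another 10 fell in the double mutant and did not pass in either single mutant: Ccna2, Cdc25c, Ncapg, Bub1, Ttk, Cenpa, Spc25, Aspm, Anln and Ect2. The first pattern can hold for at most the 9.48% of all genes that fell in Flt3-ITD. The second was not counted over all genes, of which 39.3% fell in the double mutant, so it is not read as particular to the 50.

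Mki67 did not follow that order. Ki-67 coats mitotic chromosomes and is the standard antigen for cycling cells (gene ENSMUSG00000031004.8, chr7:135689784-135716361, minus strand, GRCm38). It had 33.2 and 35.4 scaled RPKM in Npm1c cells, 36.2 and 30.0 in Flt3-ITD cells, 74.0 and 71.8 in the double mutant and 101.2 and 92.9 in WT HSPC. Both single mutants were far below the double mutant, which lay below WT, with no overlap between these 3 levels. The log2 change was -1.49 ± 0.090 (SE) in Npm1c (adjusted p = 0.000468, limma), a 2.80-fold lower level and the 4th lowest change among 9702 genes. In Flt3-ITD it was -1.54 ± 0.090 (adjusted p = 0.00113, limma), 2.92-fold lower and among the 3 lowest of 9702. In the double mutant it was -0.41 ± 0.090 (adjusted p = 0.00452, limma).

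Against Mki67 stood 21 spindle checkpoint, kinetochore and spindle microtubule genes, summed up as a geometric mean of scaled RPKM. That mean was 9.44 and 9.50 in the Npm1c libraries, 10.1 and 10.3 in the Flt3-ITD libraries, 6.79 and 6.83 in the double mutant and 11.99 and 11.74 in WT HSPC. The double mutant was thus lowest for the spindle and kinetochore genes and the single mutants lowest for Mki67. The ratio of Mki67 to the 21 genes, computed on values plus 0.5, was 3.39 and 3.59 in the Npm1c libraries, 3.46 and 2.81 in the Flt3-ITD libraries, 10.2 and 9.86 in the double mutant and 8.14 and 7.63 in WT HSPC. Tested on that relative scale, where 69.6% of all genes passed in either direction, Mki67 was lower in Npm1c by a log2 change of -1.18 ± 0.095 (adjusted p = 0.000153, limma). In Flt3-ITD the relative change was -1.34 ± 0.095 (adjusted p = 0.000846, limma), where 57.7% of genes passed. In the double mutant it was 0.35 ± 0.095 (adjusted p = 0.00951, limma), where 91.3% passed. That last value no longer passed once WT replicate 2 was left out (0.30, adjusted p = 0.0604) or without double mutant replicate 1 (0.32, adjusted p = 0.0508, both limma).

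**Figure D2:**
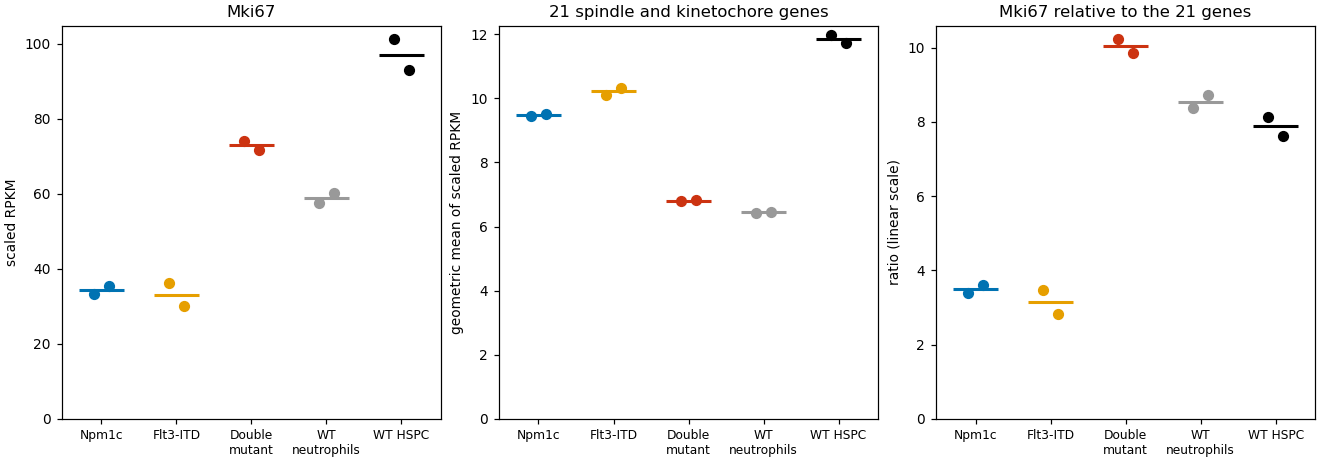
Mki67 (left, scaled RPKM), the geometric mean of 21 spindle and kinetochore genes (middle, scaled RPKM) and their ratio (right) in each library, with a line at the mean of each group of 2. The ratio lies between 2.81 and 3.59 in the 4 single mutant libraries and between 7.63 and 10.2 in the other 6.

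Top2a, the topoisomerase that untangles sister chromatids, did not share the Mki67 order. It had 58.1 and 62.2 scaled RPKM in Npm1c cells, 72.1 and 72.1 in Flt3-ITD cells, 38.5 and 39.0 in the double mutant and 77.9 and 78.1 in WT HSPC. The groups did not overlap, and the double mutant was 2.00-fold below WT. It fell by 0.37 on the log2 scale in Npm1c (SE 0.044, adjusted p = 0.0021) and fell by 1.0011 in the double mutant (SE 0.044, adjusted p = 1.26e-06, both limma). In Flt3-ITD the change was -0.11 ± 0.044 (adjusted p = 0.116, limma), which passed under 3 other scalings with -0.15 to -0.29.

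Of the 9 cyclins and kinases of mitotic entry, 7 fell in Npm1c, 0 passed in Flt3-ITD and 8 fell in the double mutant. Over all genes, 20.2% fell in Npm1c, 9.48% in Flt3-ITD and 39.3% in the double mutant. At an unadjusted p under 0.05, 2 of the 9 were lower in Flt3-ITD by limma on scaled RPKM, and by voom on recovered reads the counts were likewise 0 adjusted and 2 unadjusted. Cdk1, the kinase of cyclin B, had 13.7 and 13.7 scaled RPKM in Npm1c cells, 15.1 and 15.2 in Flt3-ITD cells, 8.53 and 8.84 in the double mutant and 15.3 and 16.2 in WT HSPC, and its log2 change in the double mutant was -0.82 ± 0.044 (adjusted p = 3.29e-06, limma). Ccnb1 and Ccnb2, both B-type cyclins, fell by 0.88 and 0.78 in the double mutant. Plk1 and Aurka, kinases that mature the centrosomes and start mitosis, fell by 0.60 and 0.69 there. Ccnb2 had the smallest p of the role in Flt3-ITD, with -0.13 ± 0.047 (adjusted p = 0.092, limma), and it passed on the deposited scale (-0.31), by quantile normalization (-0.25) and with the sum of listed genes (-0.23). Cdc25b, a phosphatase that activates Cdk1, was the exception of the role and is described further below.

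Condensin followed the larger pattern, with 4 of 5 genes lower in each single mutant and 5 of 5 in the double mutant. The shares of all genes that fell were 20.2% in Npm1c, 9.48% in Flt3-ITD and 39.3% in the double mutant. Smc4, one of its ATPase subunits, had 13.9 and 14.6 scaled RPKM in Npm1c cells, 15.3 and 14.4 in Flt3-ITD cells, 13.02 and 13.18 in the double mutant and 20.5 and 19.6 in WT HSPC. All 6 mutant libraries lay below both WT libraries, and the 3 mutant groups lay close together. Its log2 change was -0.48 ± 0.049 in Npm1c (adjusted p = 0.00157), beside -0.42 ± 0.049 in Flt3-ITD (adjusted p = 0.00556, both limma), the second lost without WT replicate 1 (adjusted p = 0.0547) or 2 (0.0504). Smc2, the other ATPase, fell by 0.85 ± 0.056 in the double mutant (adjusted p = 9.68e-06, limma). Ncapg, a subunit that binds DNA, was at 0.00 in Npm1c and 0.01 in Flt3-ITD and fell by 0.71 in the double mutant.

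Among the 4 checkpoint genes, 1 fell and 1 rose in each single mutant and 4 fell in the double mutant. Over all genes, 20.2% fell and 18.2% rose in Npm1c, 9.48% and 8.76% in Flt3-ITD, and 39.3% fell in the double mutant. The Npm1c counts are near those shares. Bub1b, the BubR1 inhibitor of the anaphase-promoting complex, had 22.7 and 22.4 scaled RPKM in Npm1c cells, 25.6 and 26.9 in Flt3-ITD cells, 15.6 and 15.6 in the double mutant and 31.1 and 31.7 in WT HSPC. Its log2 change was -0.47 ± 0.041 in Npm1c (adjusted p = 0.00107), -0.25 ± 0.041 in Flt3-ITD (adjusted p = 0.012) and -0.99 ± 0.041 in the double mutant (adjusted p = 9.38e-07, all limma). The Flt3-ITD value missed the threshold without WT replicate 1 (adjusted p = 0.0707) or 2 (0.0895). Mad2l1, which encodes the checkpoint protein Mad2, was the opposite case in the single mutants. It had 9.19 and 8.98 scaled RPKM in Npm1c cells, 8.79 and 9.48 in Flt3-ITD cells, 4.99 and 5.02 in the double mutant and 7.87 and 7.77 in WT HSPC. It rose by 0.20 ± 0.048 in Npm1c (adjusted p = 0.0168), beside 0.21 ± 0.048 in Flt3-ITD (adjusted p = 0.0289, both limma) and fell by 0.60 in the double mutant. Both rises were lost on the deposited scale (-0.07 and 0.04), with the sum of listed genes (0.11 and 0.12) and without either WT library. The Npm1c rise was also lost without either Npm1c library, and the Flt3-ITD rise without either double mutant library.

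Kinetochore and centromere genes fell in 6 of 8 cases in Npm1c, 3 of 8 in Flt3-ITD and 8 of 8 in the double mutant. The shares of all genes that fell there were 20.2%, 9.48% and 39.3%. The 3 that fell in Flt3-ITD were Cenpe, Cenpf and Ndc80. Cenpe, a large kinesin that moves chromosomes to the spindle equator, had 5.78 and 6.37 scaled RPKM in Npm1c cells, 5.80 and 5.66 in Flt3-ITD cells, 6.24 and 6.33 in the double mutant and 10.8 and 9.67 in WT HSPC. The mutant groups overlapped or nearly met, and all lay below WT. Its log2 change was -0.71 ± 0.067 in Npm1c (adjusted p = 0.00137), -0.78 ± 0.067 in Flt3-ITD (adjusted p = 0.00283) and -0.66 ± 0.067 in the double mutant (adjusted p = 8.49e-05, all limma). Cenpf, a kinetochore protein, likewise had changes of -0.61, -0.52 and -0.51. Spc24, a subunit of the Ndc80 complex that grips microtubules, fell by 0.77 ± 0.045 in the double mutant (adjusted p = 5.33e-06, limma).

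Cenpa, the histone H3 variant that marks centromeres, did not pass in either single mutant. It had 9.26 and 9.03 scaled RPKM in Npm1c cells, 7.17 and 8.63 in Flt3-ITD cells, 3.88 and 3.93 in the double mutant and 8.16 and 8.19 in WT HSPC. Both Npm1c libraries lay slightly above WT, the Flt3-ITD libraries lay on both sides of it, and the double mutant libraries lay far below all others. Cenpa fell by 0.98 in the double mutant (SE 0.078, adjusted p = 2.51e-05, limma), beside 0.15 in Npm1c (adjusted p = 0.157) with -0.05 in Flt3-ITD (adjusted p = 0.675, both limma).

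The 9 spindle microtubule genes showed 8 falls in Npm1c, 6 in Flt3-ITD and 9 in the double mutant. Of all genes, 20.2%, 9.48% and 39.3% fell there. Kif4, a chromokinesin that shapes chromosome arms and the midzone, had 8.03 and 8.88 scaled RPKM in Npm1c cells, 9.70 and 9.62 in Flt3-ITD cells, 7.10 and 7.11 in the double mutant and 14.1 and 13.8 in WT HSPC. Its log2 change was -0.69 ± 0.053 in Npm1c (adjusted p = 0.000795), beside -0.51 ± 0.053 in Flt3-ITD (adjusted p = 0.00452, both limma). Without WT replicate 1 the second had an adjusted p of 0.0533. Kif11, the kinesin that pushes spindle poles apart, fell by 0.94 ± 0.043 in the double mutant (adjusted p = 1.5e-06, limma) and had 32.8 and 31.0 scaled RPKM there, against 61.7 and 62.0 in WT HSPC. Aspm, a spindle pole protein, had -0.12 in Npm1c and -0.14 in Flt3-ITD, both not past the threshold, and fell by 1.04 in the double mutant, the lowest change of the 50.

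Of the 4 chromosomal passenger genes, 4 fell in Npm1c, 2 in Flt3-ITD and 4 in the double mutant. The shares of all genes that fell were 20.2%, 9.48% and 39.3%, in that order. Incenp, the scaffold of the complex, had 18.5 and 19.4 scaled RPKM in Npm1c cells, 21.9 and 20.96 in Flt3-ITD cells, 17.7 and 18.0 in the double mutant and 28.9 and 26.2 in WT HSPC. Its log2 change was -0.53 ± 0.057 in Npm1c (adjusted p = 0.00185), beside -0.35 ± 0.057 in Flt3-ITD (adjusted p = 0.0119, both limma), the second lost without WT replicate 1 (adjusted p = 0.0722) or 2 (0.0504). Cdca8, which encodes the subunit borealin, fell by 0.54 ± 0.041 in the double mutant (adjusted p = 1.91e-05, limma). Aurkb, the kinase of the complex, and Birc5, its subunit survivin, fell by 0.64 and 0.62 there.

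Of the 3 genes of the anaphase-promoting machinery, 2 followed the others and Pttg1 did not. Cdc20, the co-activator that the checkpoint holds, had 27.6 and 28.8 scaled RPKM in Npm1c cells, 30.9 and 32.6 in Flt3-ITD cells, 23.0 and 23.0 in the double mutant and 36.8 and 37.7 in WT HSPC. Its log2 change was -0.40 ± 0.044 in Npm1c (adjusted p = 0.00189), -0.23 ± 0.044 in Flt3-ITD (adjusted p = 0.0196) and -0.69 ± 0.044 in the double mutant (adjusted p = 8.84e-06, all limma). The Flt3-ITD call was lost without either WT library (adjusted p = 0.0858 and 0.121) and without either double mutant library (0.0556). Pttg1, which encodes securin, the inhibitor of separase, had 1.28 and 2.06 scaled RPKM in Npm1c cells, 2.47 and 2.13 in Flt3-ITD cells, 2.15 and 2.21 in the double mutant and 1.08 and 1.31 in WT HSPC. Its Npm1c libraries differed widely and one lay within the WT range, while the Flt3-ITD and double mutant libraries lay above WT. It rose by 0.73 ± 0.16 in Flt3-ITD (adjusted p = 0.0282) and, in the double mutant, by 0.67 ± 0.16 (adjusted p = 0.00754, both limma). The first was lost with no minimum level (adjusted p = 0.0651) and without any one WT or double mutant library or Flt3-ITD replicate 1, and the second on the deposited scale (0.40, adjusted p = 0.0817) and without WT replicate 1 (0.57, adjusted p = 0.0548).

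Among 6 cytokinesis genes, 4 fell in Npm1c, 1 in Flt3-ITD and 5 in the double mutant, where Kif23 rose. Of all genes, 20.2% fell in Npm1c, 9.48% in Flt3-ITD and 39.3% in the double mutant. Kif20a, a kinesin of the central spindle, changed by -0.54 ± 0.052 in Npm1c (adjusted p = 0.00139), beside -0.34 ± 0.052 in Flt3-ITD (adjusted p = 0.00984, both limma), the second lost without WT replicate 1 (adjusted p = 0.0686) or 2 (0.0817). Ect2, the exchange factor that switches on RhoA at the cleavage site, had 3.19 and 3.12 scaled RPKM in Npm1c cells, 3.54 and 3.60 in Flt3-ITD cells, 1.72 and 1.68 in the double mutant and 3.42 and 3.33 in WT HSPC. It fell by 0.82 ± 0.044 in the double mutant (adjusted p = 3.54e-06, limma) and did not pass in the single mutants.

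Kif23, the kinesin of the centralspindlin complex, had 9.61 and 10.3 scaled RPKM in Npm1c cells, 15.5 and 14.1 in Flt3-ITD cells, 19.7 and 20.5 in the double mutant and 15.2 and 15.8 in WT HSPC. It was thus lowest in Npm1c, at the WT level in Flt3-ITD and highest in the double mutant. It fell by 0.61 in Npm1c (SE 0.062, adjusted p = 0.00148) and, in the double mutant, rose by 0.36 ± 0.062 (adjusted p = 0.00122, both limma), a rise that was 0.01 on the deposited scale (adjusted p = 0.947). Racgap1, its partner in centralspindlin, fell in Npm1c and the double mutant by 0.45 and 0.27. Cdc25b had 0.869 and 1.01 scaled RPKM in Npm1c cells, 1.68 and 1.38 in Flt3-ITD cells, 1.98 and 2.02 in the double mutant and 1.98 and 1.79 in WT HSPC. It fell by 0.73 ± 0.089 in Npm1c (adjusted p = 0.00238, limma) and was at 0.07 in the double mutant (adjusted p = 0.5), where its libraries lay at the WT level.

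**Figure D3:**
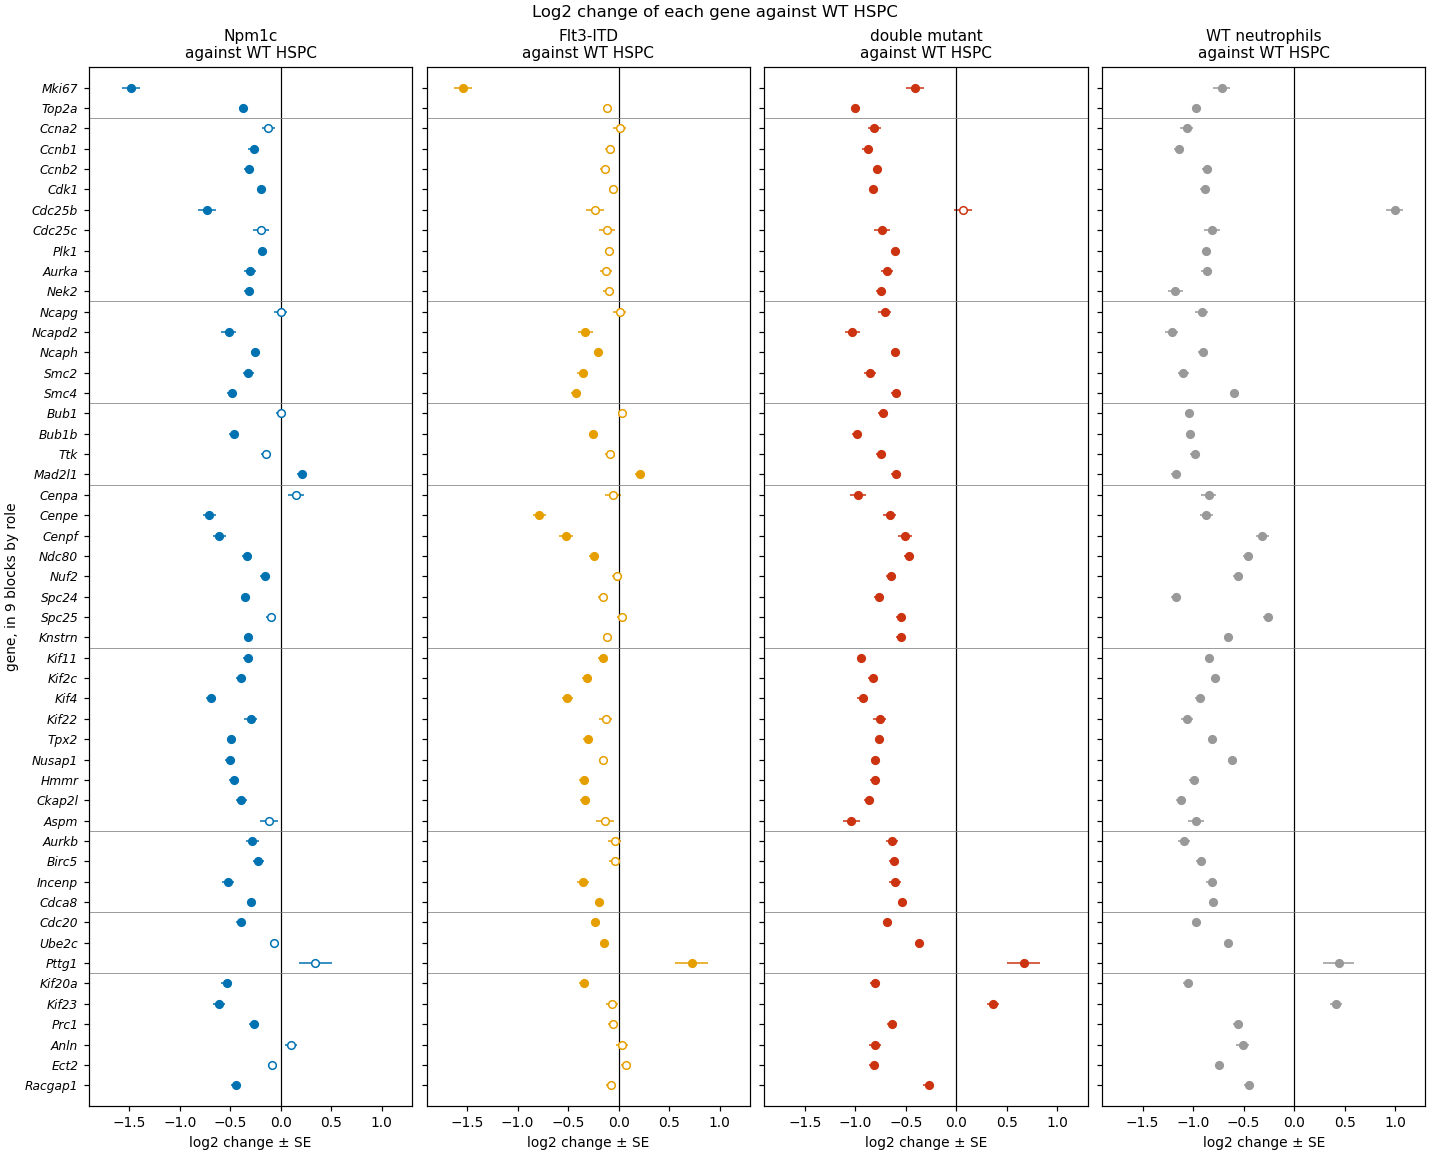
Log2 change of each gene against WT HSPC (points) with its standard error (bars), from left to right for Npm1c, Flt3-ITD, double mutant and WT neutrophils; filled points passed an adjusted p of 0.05 and open points did not. Mki67 lies far left of the other 49 genes in both single mutants, and Kif23 and Pttg1 lie right of 0 in the double mutant.

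Set against Npm1c, the double mutant was lower for 41 of 50 genes and higher for 4, where 40.9% of all genes were lower and 39.4% higher. Against Flt3-ITD, 44 were lower and 3 higher, against 39.5% and 38.4% of all genes. The 3 comparisons share the double mutant libraries, and 41 genes fell in the double mutant against each of the other HSPC groups, a pattern not counted over all genes. Quantile normalization moved the split of all genes to 2903 higher and 5307 lower against Npm1c (3826 and 3970 as scaled) and to 2877 and 5129 against Flt3-ITD (3722 and 3832 as scaled, 2778 and 4736 as deposited), with 43 and 45 of the 50 lower. The median log2 change of the 50 was -0.42 against Npm1c and -0.58 against Flt3-ITD. Cenpa had the lowest change in both, -1.13 ± 0.078 against Npm1c (adjusted p = 1.1e-05) and -0.93 ± 0.078 against Flt3-ITD (adjusted p = 3.43e-05, both limma). Mad2l1 fell by 0.80 and 0.81, Top2a by 0.63 and 0.89, Kif11 by 0.62 and 0.79 and Ect2 by 0.73 and 0.89.

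Mki67, Kif23 and Cdc25b were higher in the double mutant than in either single mutant. Mki67 was higher by 1.08 ± 0.090 than in Npm1c (adjusted p = 2.87e-05) and by 1.13 ± 0.090 than in Flt3-ITD (adjusted p = 2.57e-05, both limma), about 2.11-fold and 2.19-fold. Relative to the 21 spindle and kinetochore genes it was higher by 1.52 ± 0.095 (adjusted p = 4.86e-06, where 81.2% of genes passed) and 1.69 ± 0.095 (adjusted p = 2.69e-06, limma, where 84.1% passed). Kif23 was higher by 0.98 ± 0.062 than in Npm1c (adjusted p = 7e-06) and 0.43 ± 0.062 than in Flt3-ITD (adjusted p = 0.000524, both limma). Cdc25b was higher by 0.80 ± 0.089 than in Npm1c (adjusted p = 0.000124) and 0.30 ± 0.089 than in Flt3-ITD (adjusted p = 0.0158, both limma). The second Cdc25b call was lost on the deposited scale (0.16, adjusted p = 0.249), by quantile normalization (0.08), without Flt3-ITD replicate 2 (0.20) and without either double mutant library. Racgap1 was higher than in Npm1c by 0.17 ± 0.052 (adjusted p = 0.0176, limma), a call lost under each other scaling (0.11 as deposited, 0.11 with the sum of listed genes and -0.04 by quantile normalization) and without any one Npm1c or double mutant library.

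The interaction asks whether the double mutant differs from the sum of the single mutant changes. It passed for 36 of 50 genes, 27 below the sum and 9 above it, where 35.7% of all genes were below and 37.2% above. Mki67 lay furthest above: its single mutant changes sum to a far lower level than the double mutant showed, with an interaction of 2.62 ± 0.13 (adjusted p = 3.56e-06, limma). On the relative scale it was 2.86 ± 0.13 (adjusted p = 2.63e-06, limma), where 71.7% of genes passed. Kif23 (1.04 ± 0.087, adjusted p = 4.68e-05), Cdc25b (1.03 ± 0.13, adjusted p = 0.000278), Cenpe (0.83 ± 0.095, adjusted p = 0.000205) and Cenpf (0.62 ± 0.096, adjusted p = 0.0009, all limma) lay above as well. Smc4 (0.30, adjusted p = 0.006), Kif4 (0.27, adjusted p = 0.0132), Incenp (0.27, adjusted p = 0.0197) and Racgap1 (0.25, adjusted p = 0.0178, all limma) lay above by less, and the last 3 were lost by quantile normalization (0.12, 0.13 and 0.05). Incenp was also lost without WT replicate 1, Npm1c replicate 1 or either double mutant library, and Racgap1 without WT or double mutant replicate 1. That normalization gave 6 of the 50 above and 38 below, and over all genes 2804 above and 4789 below (3609 and 3462 as scaled). The deposited scale went the other way, with 9 of the 50 above and 19 below, and over all genes 3800 above and 2680 below.

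Below the sum lay 8 of the 9 mitotic entry genes and 4 of the 4 checkpoint genes. Cenpa (-1.08 ± 0.11, adjusted p = 0.000123), Mad2l1 (-1.01 ± 0.068, adjusted p = 1.69e-05), Ect2 (-0.80 ± 0.062, adjusted p = 3.27e-05) and Ncapg (-0.72 ± 0.091, adjusted p = 0.000334, all limma) were among the lowest. Cdk1 (-0.57), Top2a (-0.51), Kif11 (-0.46) and Birc5 (-0.36) were nearer to the sum. Ube2c, the ubiquitin-conjugating enzyme of the anaphase-promoting complex, was at -0.16 ± 0.057 (adjusted p = 0.0396, limma), and that call was lost on the deposited scale (-0.05), with the sum of listed genes (-0.12), and without WT replicate 1, Flt3-ITD replicate 1 or any one Npm1c or double mutant library.

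**Figure D4:**
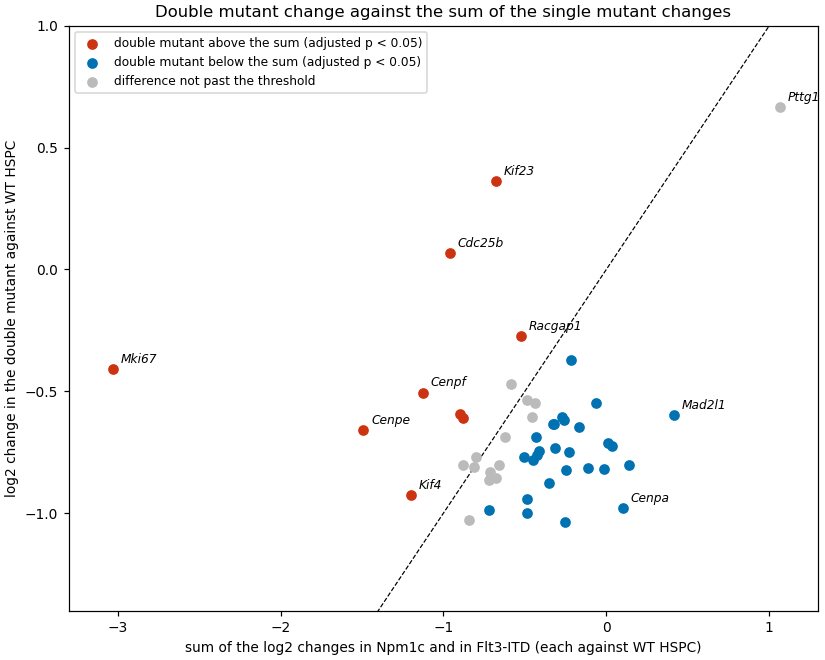
Log2 change in the double mutant (vertical axis) against the sum of the changes in Npm1c and Flt3-ITD (horizontal axis) for the 50 genes, each against the same WT HSPC libraries; the dashed line marks equality. Mki67 lies far left of and above the line, with Cenpe, Cenpf, Kif23 and Cdc25b also above, and Cenpa and Mad2l1 lie below it.

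Sums of cell type markers differed between the mutant groups. Over all genes tested, 18.2% rose and 20.2% fell in Npm1c, 8.76% and 9.48% in Flt3-ITD, and 38.0% and 39.3% in the double mutant. Monocyte and macrophage genes (13) summed to 1101 to 1107 scaled RPKM in the double mutant, 122 to 150 in Npm1c and 226 to 322 in Flt3-ITD, against 202 to 206 in WT HSPC. Of these, 10 rose and 1 fell in the double mutant, 10 fell in Npm1c and 6 rose in Flt3-ITD. Megakaryocyte and platelet genes (11) summed to 64.3 to 65.5 in the double mutant, against 276 to 292 in WT HSPC, and 11 of 11 fell. Erythroid genes (16) summed to 1299 to 1316 in the double mutant, against 915 to 955 in WT HSPC, with 6 of 16 higher and 10 lower. The stem and progenitor list (14) summed to 143 to 145 in the double mutant, against 101 in WT HSPC, with 3 higher and 5 lower of the 9 tested. In both lists the share that rose was near that of all genes. Late neutrophil genes summed to 91.8 and 408 in the 2 Npm1c libraries and 255 to 268 in Flt3-ITD, against 50.1 to 64.8 in WT HSPC, with 5 of 15 tested higher in each. T and NK cell genes (11 found of 12) summed to 23.6 to 61.5 in HSPC libraries of every group, with both ends of that range in Flt3-ITD. Of the 3 tested, 2 rose in the double mutant, Il7r and Gzma, and 1 fell. B and plasma cell genes summed to 18.9 to 25.2 in the double mutant, against 177 to 181 in WT HSPC. No gene of these lists was at 0 in every library of a group. Their part in the changes of the mitotic genes was not tested.

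Neutrophils, which leave the cell cycle as they mature, had lower levels of 47 of the 50 genes than WT HSPC, and 3 were higher, where 47.6% of 10174 genes were lower and 43.4% higher in this comparison. The median log2 change of the 50 was -0.87, against -0.08 for all genes. As deposited these medians were -1.61 and -0.70, and with the sum of listed genes -1.99 and -1.02. Both neutrophil libraries lay below all 8 HSPC libraries for 29 of the 50, against 41.7% of all genes. The transcripts were still present: Mki67 was at 57.5 and 60.2 scaled RPKM in neutrophils, against 101.2 and 92.9 in WT HSPC, a change of -0.72 ± 0.086 (adjusted p = 4.67e-05, limma). Top2a had 39.4 and 39.6 in neutrophils, close to the double mutant, against 77.9 and 78.1 in WT HSPC. That closeness depends on scaling: the deposited RPKM were 28.45 and 28.76 in neutrophils and 37.5 and 37.85 in the double mutant. Ccnb1 fell to 7.37 and 7.42 in neutrophils, against 16.6 and 17.3 in WT HSPC (-1.14 ± 0.050, adjusted p = 4.88e-08, limma).

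Other members with the smallest p of their role in neutrophils were Spc24 (-1.17), Kif20a (-1.05), Bub1b (-1.03), Hmmr (-0.99), Cdc20 (-0.97), Ncaph (-0.90) and Cdca8 (-0.80), with adjusted p between 3.37e-08 and 1.25e-07 by limma. The ratio of Mki67 to the 21 spindle and kinetochore genes was 8.36 and 8.72 in neutrophils, against 8.14 and 7.63 in WT HSPC, and the relative change was 0.12 ± 0.090 (adjusted p = 0.248, limma), where 90.2% of genes passed. Under quantile normalization it was -0.30 (adjusted p = 0.0158, limma), so its direction is not settled. Cdc25b had 4.08 and 4.43 scaled RPKM in neutrophils, against 1.98 and 1.79 in WT HSPC (0.997 ± 0.086, adjusted p = 5.03e-06, limma). Kif23 (0.42 ± 0.057, adjusted p = 0.000122) and Pttg1 (0.44 ± 0.15, adjusted p = 0.023, both limma) were the others that were higher. These 3 depend on scaling: the sum of listed genes turned them to -0.04, -0.77 and -0.45, and the deposited scale turned Kif23 to -0.36 and Pttg1 to -0.15. Pttg1 also missed the threshold without WT replicate 1 or either neutrophil library. On the deposited scale the median gene itself shifted by -0.70 in neutrophils, and on the sum of listed genes by -1.02, and the split of all genes was 2892 higher and 6391 lower as deposited and 2309 and 7158 with that sum (4418 and 4840 as scaled). B and plasma cell genes (13) summed to 445 to 446 scaled RPKM in neutrophils, against 177 to 181 in WT HSPC, and the part of other cells in the remaining mitotic transcripts was not tested.

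Outside the 50, the 5 genes whose pattern over the 4 HSPC group means was most like that of Mki67 were Tpr, Tcof1, Ankrd11, Bod1l and Golga4, with root mean square distances of 0.291 to 0.35 on the log2 scale. Their coding lengths, in that order, were 7293, 4068, 7992, 9096 and 6714 bases. Tpr, a filament of the nuclear pore basket, had 6.81 and 7.68 scaled RPKM in Npm1c cells, 7.20 and 6.21 in Flt3-ITD cells, 11.5 and 11.3 in the double mutant and 13.3 and 12.4 in WT HSPC. Tcof1, the nucleolar protein treacle, had 2.36 and 2.56 scaled RPKM in Npm1c cells, 2.72 and 2.12 in Flt3-ITD cells, 4.86 and 4.90 in the double mutant and 4.54 and 4.54 in WT HSPC. In both of these the single mutants were low and the double mutant was near WT. Within the 50, the nearest to Mki67 were Cenpe (0.456, position 52 among all genes tested), Cdc25b (0.473), Cenpf (0.503) and Kif23 (0.525).

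Coding length moved with these patterns. Mki67 has a coding length of 9531 bases, Cenpf of 8991 and Cenpe of 7413, and these are 3 of the 4 longest of the 50. Across the 50 genes, Spearman's rho between coding length and log2 change was -0.45 in Npm1c, -0.50 in Flt3-ITD and -0.27 in the double mutant, and without Mki67 it was -0.42, -0.46 and -0.33. Across 9330 genes it was -0.15, -0.27 and -0.05, and the points share libraries and WT values. The 140 genes with coding lengths of at least 7000 bases had median changes of -0.06 in Npm1c, -0.09 in Flt3-ITD and 0.14 in the double mutant, against -0.01, 0.02 and -0.02 for those under 3000 bases. The long genes had medians of 0.20 in the double mutant against Npm1c, 0.30 against Flt3-ITD and 0.35 for the interaction. Genes under 3000 bases had -0.04, -0.03 and -0.03 there. Tpr, Ankrd11 and Bod1l, named above as most like Mki67, are among the long genes. Aspm, at 9366 bases, is nearly as long as Mki67, did not pass in either single mutant and had -0.12 in Npm1c and -0.14 in Flt3-ITD. The part of length, of RNA quality or of the share of reads on listed genes in the Mki67 result was not tested.

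Genes of the same machinery outside the 50 are given beside the shares of all genes that fell, which were 20.2% in Npm1c, 9.48% in Flt3-ITD and 39.3% in the double mutant. Of 35 further kinetochore and centromere genes tested, 6 fell in Npm1c, 3 in Flt3-ITD and 33 in the double mutant, with 0 higher in each and medians of -0.06, -0.03 and -0.62. In both single mutants that is no larger a share than over all genes. Hjurp, the chaperone that loads the centromeric histone Cenpa, averaged 8.51 scaled RPKM in the double mutant, against 22.1 in WT HSPC (-1.32 ± 0.063, adjusted p = 1.89e-06, limma). Of 30 further spindle and cytokinesis genes, 17 fell in Npm1c, 9 in Flt3-ITD and 23 in the double mutant, while Kif2a rose in Npm1c and Cep55 and Haus8 in the double mutant. Kif15, a spindle kinesin, averaged 16.3 in the double mutant, against 31.2 in WT HSPC (-0.92 ± 0.042, adjusted p = 1.65e-06, limma). The 17 cohesin, condensin II and chromosome genes had 6, 2 and 14 lower, with 2, 0 and 0 higher. Smc1a, a cohesin subunit, changed by -0.87 in Npm1c and -0.80 in Flt3-ITD.

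Regulators of these genes were measured as well. Of 22 B-MYB, FOXM1 and DREAM genes tested, 6 fell in Npm1c, 2 in Flt3-ITD and 12 in the double mutant, and 0, 1 and 3 rose. The Flt3-ITD share is near that of all genes, and over all genes 18.2%, 8.76% and 38.0% rose. Mybl2, which encodes B-MYB, averaged 6.47 scaled RPKM in Npm1c, 7.36 in Flt3-ITD and 5.52 in the double mutant, against 8.89 in WT HSPC, with changes of -0.43 in Npm1c (adjusted p = 0.0035), beside -0.26 in Flt3-ITD (adjusted p = 0.0328, both limma). Foxm1, a transcription factor for G2 genes, averaged 2.31 in Npm1c, against 3.18 in WT HSPC (-0.39, adjusted p = 0.00332, limma). Of 21 mitotic exit and anaphase-promoting complex genes, 3, 1 and 12 fell and 3, 1 and 4 rose in Npm1c, Flt3-ITD and the double mutant, where both single mutant shares of falls lie below those of all genes. Among 19 kinase partners and G2 checkpoint genes, 6, 1 and 16 fell and 2, 0 and 3 rose. The 25 S phase genes fell in 15, 4 and 25 cases, with 0 higher, and medians of -0.19, -0.04 and -0.64. In neutrophils all 25 S phase genes fell, with a median of -1.59, beside -0.87 for the 50 G2 and mitosis genes.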

How the data were processed

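Total RNA was depleted of rRNA before directional library preparation, per the labels' protocols. The deposited values are RPKM, in 1 table for each library; STAR 2.4.0, HTSeq, DiffBind and mm10 are named per the submitters' processing notes, with no role given. The annotation, the use of strand in counting and the treatment of reads shared by gene copies are absent from the sources used here.

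Because RPKM depends on the library total, each library was rescaled by median of ratios over the 6490 genes at 1 RPKM or more in all 10 libraries. limma 3.58.1 (R 4.3.3) was run on log2(scaled RPKM + 0.5) with an empirical Bayes trend and Benjamini-Hochberg adjustment at 0.05. Genes needed 1 RPKM in 2 of the libraries fitted, which left 9702 genes in 8 HSPC libraries and 10174 in all 10 for neutrophils. Changes of low genes are understated by the added 0.5. The relative test first subtracted each library's mean over the 21 comparators. Whole reads were recovered for 16655 of 16655 genes above 0 in 2 or more libraries (tolerance 0.02 reads) and served for depth and for voom as an alternative.

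Alternatives were RPKM as deposited, scaling to the sum of listed genes, quantile normalization, pseudocounts of 0.1 and 1, no minimum level, a replicate block, voom, leaving out each library and, added after seeing the data, a Y-linked term. Changes were named by rule in each comparison for Mki67, Top2a, the gene of each role with the smallest adjusted p, members passing against the majority, up to 3 genes per further list and the 5 genes most like Mki67. Changes given for other members were chosen after their values were seen. The members and lists were chosen with earlier results of these data known. Gene positions came from GENCODE M21 (16158 symbols matched). Python 3.11.15, NumPy 2.4.6, pandas 2.3.3 and matplotlib 3.10.9 were used, and the fits were tested on simulated data, where the share of false calls for the double mutant against WT was above the nominal 0.05.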

Additional observations from a re-analysis of the deposited data

Results flagged for a closer look

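The effect of one mutation differed with the other present for 18 named genes, by the interaction term of the limma fit (the double mutant change less the sum of the Npm1c and Flt3-ITD changes, on the log2 scale). Over all 9702 genes, 37.2% lay above the sum and 35.7% below it, so passing was not particular to these genes. Of the 18, 9 lay above the sum of the single mutant changes: Mki67 at 2.62 (2.86 relative to the 21 spindle and kinetochore genes), Kif23 at 1.04, Cdc25b at 1.03, Cenpe at 0.83, Cenpf at 0.62, Smc4 at 0.30, Kif4 at 0.27, Incenp at 0.27 and Racgap1 at 0.25. Below the sum lay Cenpa at -1.08, Mad2l1 at -1.01, Ect2 at -0.80, Ncapg at -0.72, Cdk1 at -0.57, Top2a at -0.51, Kif11 at -0.46, Birc5 at -0.36 and Ube2c at -0.16. The calls of Kif4, Incenp, Racgap1 and Ube2c were each lost under other settings, as given with the results. The part of coding length and of monocyte marker levels, whose values stand with the results, was not tested.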

How the results depend on the processing

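The count of members lower in the double mutant against WT was 47 under each alternative. The count lower in Npm1c (37) was 47 as deposited and 27 to 40 leaving out 1 library (27 without WT replicate 2), and the count below the sum in the interaction (27) was 19 as deposited and 38 by quantile normalization. The count of members lower in Flt3-ITD (20) was 38 as deposited and 31 with the sum of listed genes, and leaving out 1 library gave 2 to 23. The count higher in Flt3-ITD (2) was 1 as deposited, 1 with the sum of listed genes and 1 with no minimum level, and 0 to 2 leaving out 1 library. The count higher in Npm1c (1) was 0 on those 2 scales, 2 with a Y-linked term, and 0 to 2 leaving out 1 library. The count higher in the double mutant against WT (2) was 0 as deposited and 1 to 2 leaving out 1 library. The count higher in neutrophils (3) was 1 as deposited and 0 with the sum of listed genes. Mki67 relative to the spindle and kinetochore genes ranged from 0.30 to 0.40 in the double mutant against WT, leaving out 1 library, and was -0.30 in neutrophils by quantile normalization. Signs turned for Mad2l1 in Npm1c (-0.0738 as deposited), Racgap1 against Npm1c (-0.0359, quantile), and in neutrophils for Cdc25b (-0.0411, listed sum), Pttg1 (-0.15 as deposited, -0.45 listed sum) and Kif23 (-0.36 as deposited, -0.0549 quantile, -0.77 listed sum). The cause of these moves was not tested.

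Same-numbered libraries did not deviate together: across genes, their deviations from the group mean correlated between -0.112 and 0.0963. With 1 difference per group, this cannot decide whether they were prepared together. With the replicate number as a block, members higher and lower were 1 and 36 in the Npm1c comparison, 2 and 18 in the Flt3-ITD comparison, 2 and 47 in the double mutant, 4 and 41 against Npm1c, 3 and 44 against Flt3-ITD, 9 and 26 for the interaction and 3 and 47 in neutrophils. The one named call that the block ended was the Ube2c interaction (-0.16, adjusted p = 0.0603, limma). With 2 libraries per group, and as few as 234 reads for a member in a library, both the spread between libraries and counting error limit small differences, and their shares were not separated.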
